A study of Drosophila melanogaster with 4 samples.

Results

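The genes that shorten the poly(A) tail, remove the cap and degrade the body of mRNA were followed in testes of Drosophila melanogaster in which Caf40, a subunit of the CCR4-NOT deadenylase, was knocked down, against testes mutant for bam. The list held 41 genes, chosen by name and role, with earlier results of these data known. It took in CCR4-NOT with Caf40 (named Rcd-1 in the annotation) and its paralogue Rcd-1r, PAN2-PAN3, decapping factors and the Xrn1 exonuclease pcm. It also took in nonsense-mediated decay (NMD), the exosome, and poly(A)-binding and adaptor genes. Of these, 40 were matched to 1 of the 17559 gene IDs of the count files, and all 40 passed the filter on low counts that kept 10854 genes for testing. The decapping scaffold Ge-1 could not be matched and was not analysed here. The lowest count of any of the 40 genes in any library was 405, that of Rcd-1 itself.

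The knockdown males (2 libraries) carried the hairpin Caf40RNAi(BL67987) with nosGAL4, a driver of the germ line stem cells and early spermatogonia, so that somatic cells of the testis were not targeted, and the driver strains used for knockdown also carried UAS-Dicer2. They were kept at 25 °C for 3 days, moved to 29 °C, and dissected 0 to 2 days after eclosion. The mutant males (2 libraries) were bam1/bam86, with CyO given for their strain. They were raised at 22 °C to mid and late pupa, held at 37 °C for 30 min although no heat-shock transgene was present, returned to 25 °C and dissected 48 h later, as the labels and the methods give it. Each library pooled 150 pairs of testes. By the methods, the seminal vesicle was taken along and the males of this comparison were 0 to 2 days old. The labels give that age for the knockdown only. The rearing regimes were not crossed with the genotypes, so that genotype, temperature, heat shock, strain background and sequencing depth cannot be told apart. Nothing in the labels says whether replicate libraries came from separate cultures, and p-values measure only the spread between these libraries.

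Most cytoplasmic mRNAs begin to decay when CCR4-NOT, or PAN2-PAN3 on long tails, removes the poly(A) tail from the 3′ end. The shortened mRNA is then decapped by Dcp2 with its activators and degraded from the 5′ end by Xrn1, or degraded from the 3′ end by the exosome, while NMD brings mRNAs with a premature stop codon into the same steps. In the male germ line of the fly, the differentiation factor Bam binds Caf40, and spermatogonia that lack bam keep dividing.

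The knockdown libraries held 30411385 and 26984758 gene counts, against 118209171 and 95125694 in the bam mutant, a mean depth 3.717 times higher in the mutant. Levels are given in CPM, counts scaled to 1000000 gene counts per library after an adjustment for composition (TMM, the trimmed mean of M-values), and a gene was called when edgeR's quasi-likelihood test gave a Benjamini-Hochberg adjusted p under 0.05 over all tested genes. By this rule 63.7% of all tested genes differed, with 30.7% up in the knockdown and 33.0% down. Of all calls 48.2% were higher, and 10.7% under a scaling that holds the germline marker genes level between the groups, which moved the median of all genes by -0.61 on the log2 scale. Summed levels of the germline markers were 3350 and 3002 CPM in the knockdown and 2048 and 2006 CPM in the bam mutant, with 11 of the 12 tested called higher and none at 0. Under TMM most germline markers were thus higher in the knockdown, and most markers of the somatic testis cells lower. Whether the numbers of these cells differed was not tested. Markers of cyst and hub cells summed to 357 and 319 CPM in the knockdown and 529 and 535 CPM in the mutant, with 7 of 10 lower and 1 higher. Genes of the muscle sheath summed to 935 and 1072 CPM in the knockdown, against 1472 and 1655 CPM in the mutant, with 7 of 9 lower. Spermatocyte genes summed to 112 and 108 CPM in the knockdown and 75.5 and 73.3 CPM in the mutant. Of the 7 tested, 3 were called higher and none lower. The replicates of the knockdown differed in 2 lists. Accessory gland genes summed to 318 and 37.2 CPM in the knockdown and 8.81 and 2.20 CPM in the mutant, and spermatid genes to 4.85 and 136 CPM against 9.95 and 11.7 CPM in the mutant. Heat shock genes summed to 17966 and 16767 CPM in the knockdown, against 12202 and 11638 CPM in the mutant, with 8 of 10 higher, 1 lower and 1 further gene at 0 in every library. The part of these differences in the results that follow was not tested.

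Among the 40 mRNA decay genes, 22 passed the test as higher in the knockdown (55% of them, beside 30.7% of all genes), 4 lower (10%, beside 33.0%), and 14 were not called. Their median log2 fold change, knockdown over bam mutant, was 0.26, beside 0.03 for all tested genes. The gap between these medians was 0.23, and it was 0.11 with DESeq2 and between 0.16 (without bam mutant replicate 2) and 0.37 (without Caf40 knockdown replicate 2) when each library was left out in turn. Apart from Rcd-1 the changes were moderate, since 37 of the other 39 genes lay within 1 unit of 0 on the log2 scale and only Smg1 and Tob lay beyond. The libraries of the groups did not overlap for 35 of the 40 genes (87.5%, beside 83.4% of all genes). In bulk testes a transcript made mostly by germ cells can differ because its cells were more or fewer or because each cell held more or less of it, and these cannot be told apart. Under the germline list scaling 4 of the 40 were higher (beside 7.47% of all genes), 26 were lower (beside 62.2%) and the median was -0.35. The directions below are therefore those under TMM, and the genes whose direction turned under the germline scaling are named with them.

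**Figure D1:**
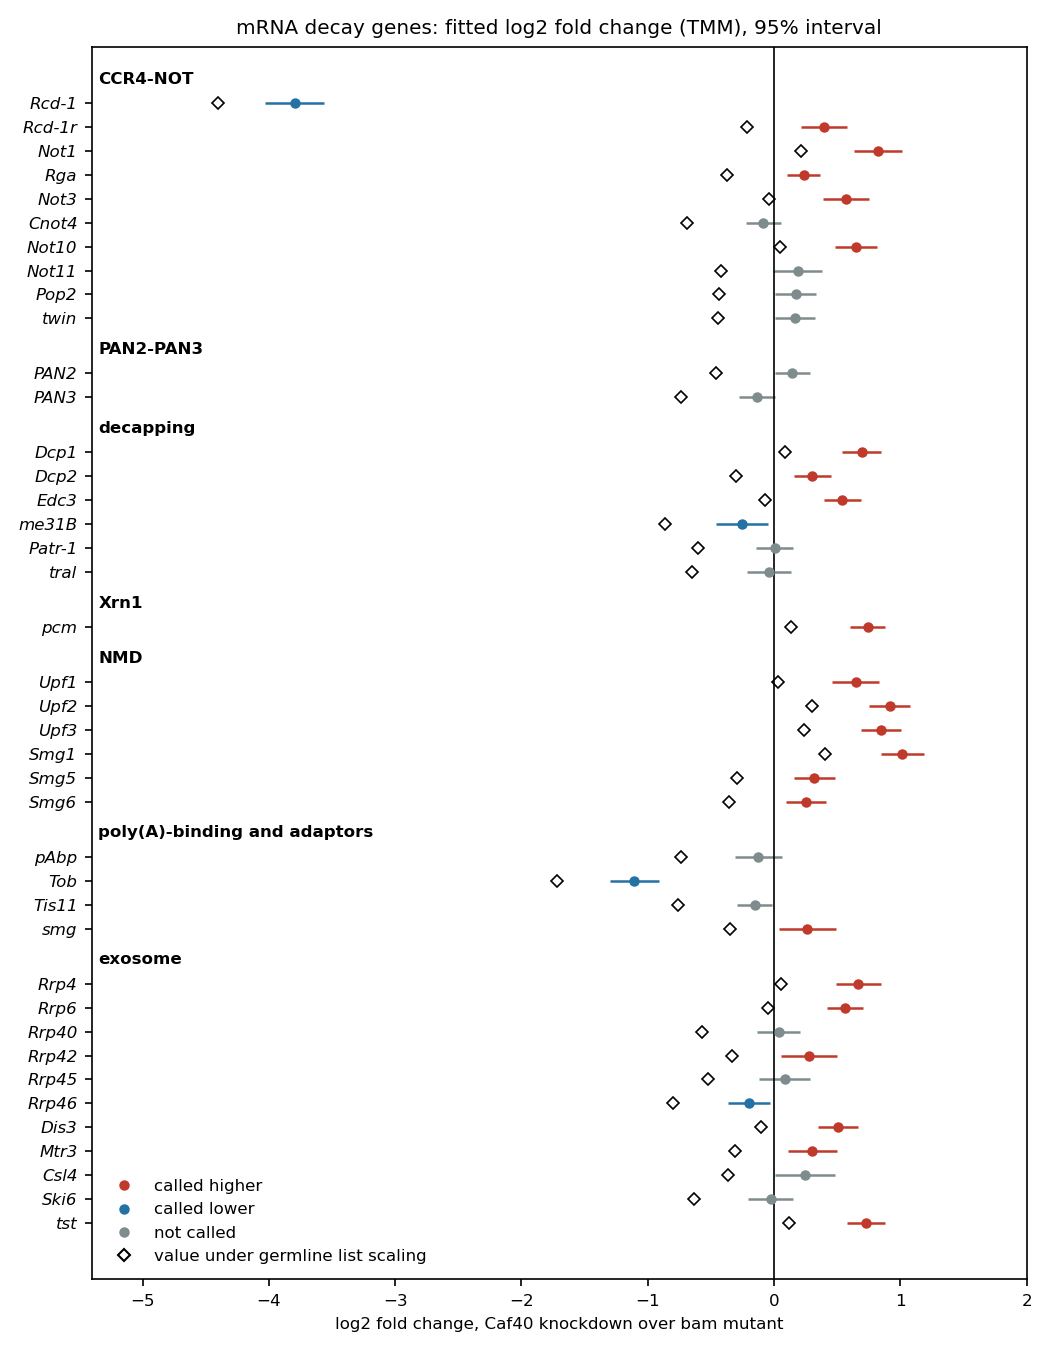
Fitted log2 fold change of each of the 40 mRNA decay genes (x axis, Caf40 knockdown over bam mutant), grouped by role down the page. Filled points with bars are the TMM fit with its 95% interval, coloured by the call, and open diamonds the value under the germline list scaling, which lies lower for every gene: 22 points are called higher and 4 lower, while Not1, Upf2, Upf3 and Smg1 are the 4 genes still called higher at the diamonds.

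Rcd-1, which lies on chromosome X from 19638767 to 19640746 and encodes the Caf40 subunit against which the hairpin was directed, was at 13.5 and 16.2 CPM in the knockdown libraries and at 204 and 207 CPM in those of the bam mutant. Both knockdown libraries were far below both mutant libraries, with no overlap. The log2 fold change was -3.80 ± 0.09 (SE; edgeR adjusted p = 2.09e-05), which left the knockdown at 7.20% of the mutant level. Without each library in turn it lay between -3.93 and -3.71. The RNA came from whole testes, and the level per germ cell and in the untargeted somatic cells was not measured.

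Rcd-1r is a paralogue of Rcd-1 on chromosome 2L (9012885 to 9014068), with an annotated exonic length of 1184 bases equal to its whole span. It was at 465 and 423 CPM in the knockdown, against 342 and 331 CPM in the bam mutant. Both knockdown libraries were above both mutant libraries (log2 fold change 0.40 ± 0.07, edgeR adjusted p = 0.00551), and the direction turned under the germline list scaling, at -0.21. Its exons are covered to 100% by CG13102 on the opposite strand, so its unstranded count was 0 in every library and only the strand-specific count measures it. The share of opposite-strand counts at the locus was 0.0457% in the knockdown and 0.0875% in the mutant.

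Since both genes were measured in the same library, their ratio does not depend on the scaling between libraries. Per exonic length, Rcd-1r outnumbered Rcd-1 by 50.5 and 38.3 times in the knockdown libraries and by 2.46 and 2.34 times in the bam mutant libraries. The paralogue was thus the more abundant of the pair in all 4 libraries, and the ratio was far higher in both knockdown libraries. Reads shared by the paralogues, if any, would have been set aside as multimapping, and how many there were was not measured.

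The other subunits of CCR4-NOT moved unequally: 4 of the 8 were called higher, beside 30.7% of all genes, and none lower, beside 33.0%. Their median was 0.21. Not1, the scaffold on which the complex is built (chromosome 2R, 9566146 to 9579007), was at 1831 and 1704 CPM in the knockdown and at 981 and 1019 CPM in the bam mutant. This was a rise by 0.82 ± 0.08 on the log2 scale, or 1.77-fold (edgeR adjusted p = 4.42e-04), and it was still called under the germline list scaling, at 0.21. Per exonic length Rcd-1r (375 CPM per kb) and Not1 (162 CPM per kb) were the most abundant CCR4-NOT genes in the knockdown. In the bam mutant Rcd-1r (284 CPM per kb) came before Rcd-1 (119 CPM per kb) and Not1 (91.6 CPM per kb).

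Not3, which with Not2 forms the module at the C-terminal end of Not1, was at 384 and 347 CPM in the knockdown and 249 and 244 CPM in the mutant (log2 fold change 0.57 ± 0.07, edgeR adjusted p = 0.00142). Its groups did not overlap, but under the germline list scaling the difference was -0.04 and not called. Rga, the fly Not2, differed less, by 0.24 ± 0.05 (edgeR adjusted p = 0.0111), and the direction turned to -0.37 under the germline scaling. The call of Rga was lost without bam mutant replicate 1 (0.14), without bam mutant replicate 2 (0.16) and without the filter on low counts (0.09). An antisense transcript, asRNA:ASTR, overlaps 34.4% of the exonic length of Rga on the other strand, and opposite-strand counts were 3.02% of its total in the knockdown and 0.995% in the mutant.

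Not10 and Not11 form the module at the N-terminal end of Not1. Not10 was at 43.4 and 42.4 CPM in the knockdown and at 28.1 and 26.5 CPM in the bam mutant, 0.65 ± 0.07 higher on the log2 scale (edgeR adjusted p = 6.05e-04). The knockdown libraries were clearly the higher, although the difference was 0.04 and not called under the germline list scaling. Not11, its partner, differed by 0.19 with an interval from -0.01 to 0.38 and was not called (edgeR adjusted p = 0.0860). Under the germline list scaling it was called lower, at -0.42. It was called higher under upper quartile scaling (0.33), by library size alone (0.28) and with the bam mutant libraries thinned (0.22).

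The catalytic subunits were not called, although each passed as higher in 7 of 15 alternatives and as lower in 1. Pop2, the Caf1 deadenylase, was at 237 and 218 CPM in the knockdown and 203 and 201 CPM in the mutant, and the log2 difference was 0.17 (95% interval 0.01 to 0.33, edgeR adjusted p = 0.0622). For twin, the Ccr4 deadenylase, it was 0.17 as well (0.01 to 0.33, adjusted p = 0.0663). The knockdown libraries lay above the mutant libraries for both genes. They passed, for example, without Caf40 knockdown replicate 2, at 0.23 each, and under the germline list scaling both were called lower, at -0.44. Cnot4, the fly Not4 ubiquitin ligase, differed by -0.08 (-0.22 to 0.05) and was not called. It was called lower under the germline list scaling (-0.69) and without the filter on low counts (-0.23).

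**Figure D2:**
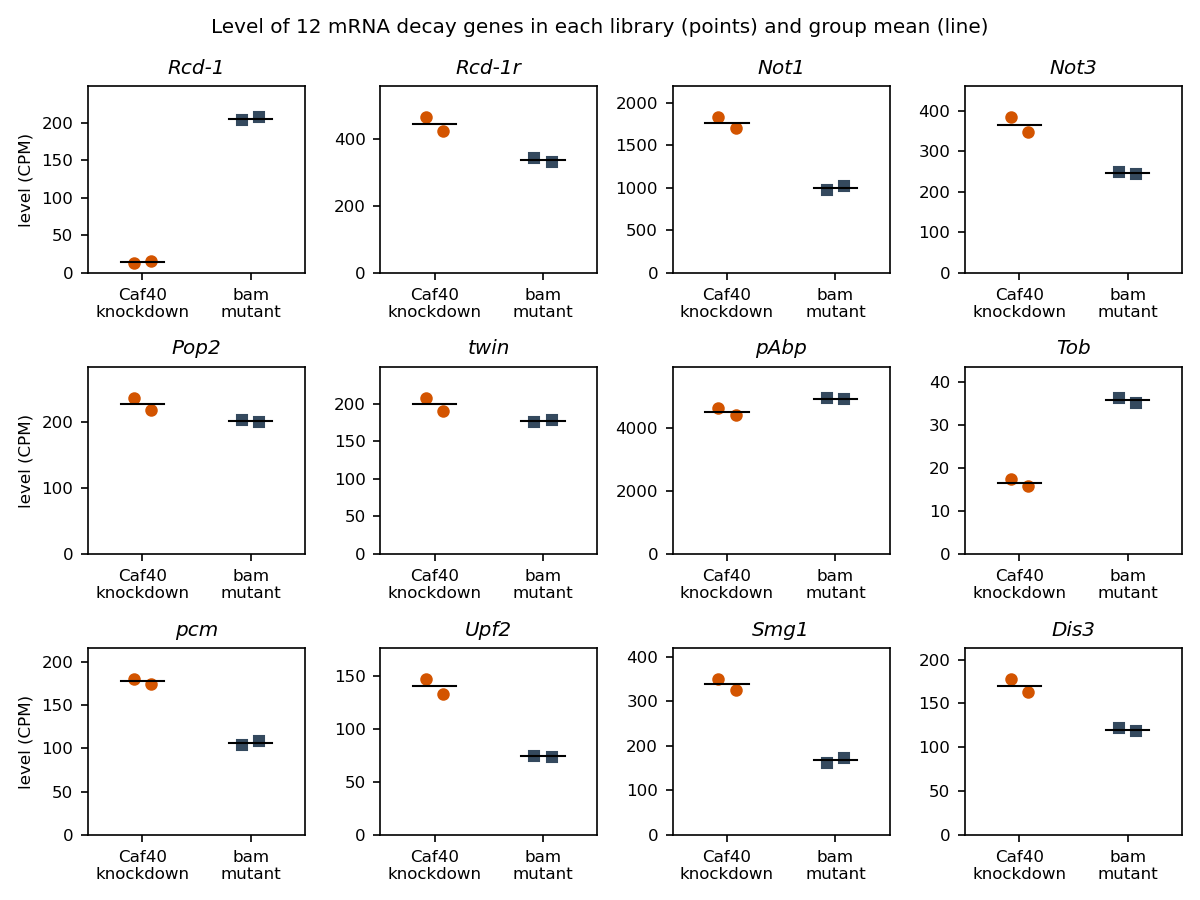
Level in CPM (y axis from 0, each panel with its own range) of 12 mRNA decay genes in the 2 Caf40 knockdown libraries (circles, left) and the 2 bam mutant libraries (squares, right), with lines at group means. Rcd-1 (13.5 and 16.2 CPM in the knockdown) and Tob lie lower in the knockdown, Not1, pcm, Upf2 and Smg1 higher, and Pop2, twin and pAbp differ little; these are TMM levels, and Rcd-1r, Not3, Pop2, twin and Dis3, here above the mutant, turned to negative differences under the germline list scaling.

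The unequal change within the complex was also seen without any scaling between libraries. The ratio of Not1 to Pop2 per exonic length was 1.89 and 1.91 in the knockdown and 1.18 and 1.24 in the bam mutant, and that of Not1 to twin 3.82 and 3.87 in the knockdown and 2.41 and 2.47 in the mutant. Scaffold thus exceeded catalytic subunit RNA by more in both knockdown libraries. Pop2 to twin was 2.02 and 2.03 in the knockdown and 2.05 and 1.99 in the mutant, so that the ratio of the deadenylases overlapped between the groups. Not10 to Not11 was 0.736 and 0.700 in the knockdown and 0.508 and 0.533 in the mutant, and Not3 to Rga was 1.43 and 1.30 against 1.11 and 1.07 in the mutant. With 2 libraries against 2, an exact permutation test of a single ratio cannot give a p below 0.333, so no test was made.

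**Figure D3:**
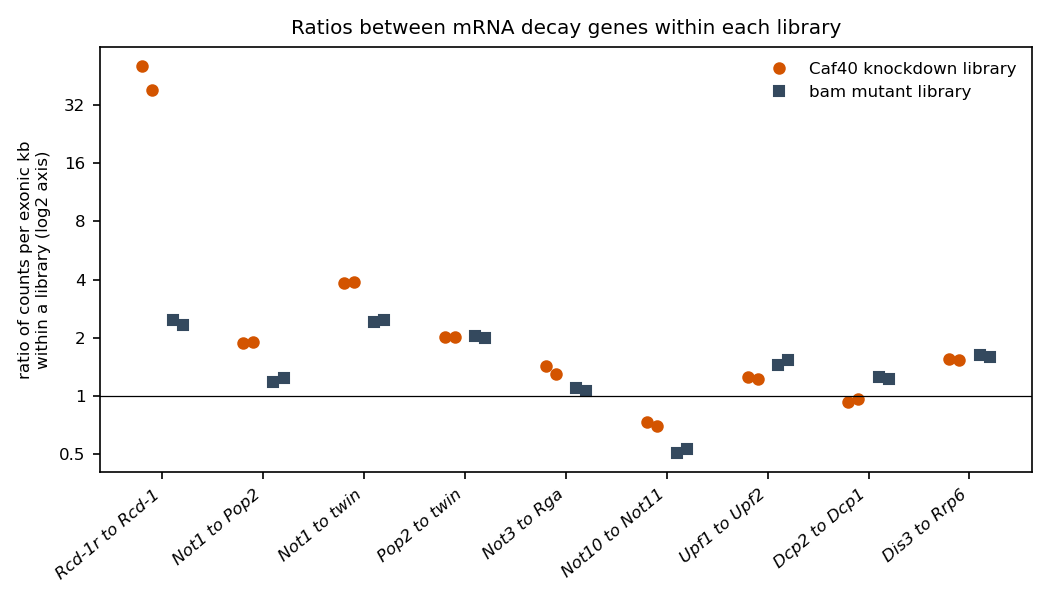
Ratio of counts per exonic kb between pairs of mRNA decay genes within each library (y axis, log2 scale), with the 2 Caf40 knockdown libraries as circles on the left of each pair and the 2 bam mutant libraries as squares on the right. Rcd-1r to Rcd-1 is 50.5 and 38.3 in the knockdown and 2.46 and 2.34 in the mutant, Not1 to Pop2 and Not1 to twin are higher in the knockdown, and Pop2 to twin overlaps.

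The PAN2-PAN3 deadenylase, which acts before CCR4-NOT on long tails, was not called. PAN2, the nuclease, differed by 0.14 (95% interval 0.01 to 0.28, edgeR adjusted p = 0.0652) and PAN3, which links it to the poly(A)-binding protein, by -0.13 (-0.28 to 0.01, adjusted p = 0.0900). The knockdown libraries lay above the mutant libraries for PAN2 and below them for PAN3. Both lay near the threshold: PAN2 passed without Caf40 knockdown replicate 1 (0.14), PAN3 without replicate 1 (-0.14) or replicate 2 (-0.17) of the knockdown, and both were lower under the germline list scaling (-0.46 and -0.74). Per exonic length PAN2 stood to PAN3 as 1.30 and 1.32 in the knockdown and 1.12 and 1.05 in the mutant.

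Among the decapping genes, 3 of the 6 tested were called higher and 1 lower, beside 30.7% and 33.0% of all genes. Dcp1, the activating partner of the decapping enzyme (chromosome 2R, 23888764 to 23890276), was at 77.4 and 72.2 CPM in the knockdown and 45.8 and 46.7 CPM in the bam mutant. The log2 fold change was 0.69 ± 0.06 (edgeR adjusted p = 3.85e-04), and 0.08 and not called under the germline list scaling. Dcp2, the decapping enzyme itself, rose by less, 0.30 ± 0.06 (edgeR adjusted p = 0.00605), and turned to -0.30 under that scaling. The ratio of Dcp2 to Dcp1 per exonic length, which needs no scaling, was 0.932 and 0.962 in the knockdown and 1.26 and 1.22 in the mutant. It was thus lower in both knockdown libraries. Whether it lies above or below 1 depends on the annotated exonic lengths.

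Edc3, an enhancer of decapping, was at 102 and 95.2 CPM in the knockdown and 67.7 and 67.9 CPM in the mutant. It rose by 0.54 ± 0.06 (edgeR adjusted p = 7.18e-04), with -0.07 and no call under the germline list scaling. The remaining genes encode proteins of the repressed RNP granule. me31B, the DDX6 helicase that binds Not1 and represses translation, was the 1 decapping gene called lower, at 244 and 214 CPM in the knockdown against 280 and 268 CPM in the bam mutant (log2 fold change -0.26 ± 0.08, edgeR adjusted p = 0.0382). It lost the call under upper quartile scaling, at -0.11. Patr-1, the Pat1 decapping activator, differed by 0.01 (-0.14 to 0.15) and tral, an LSm14-type partner of me31B, by -0.04 (-0.22 to 0.13), and the libraries of the groups overlapped for both. Both were called lower under the germline list scaling, at -0.60 and -0.65, and without the filter on low counts, at -0.14 and -0.19. Under upper quartile scaling both were called higher, at 0.15 and 0.10. Without Caf40 knockdown replicate 1, tral was called lower, at -0.16.

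pcm, the fly Xrn1 that digests decapped mRNA from the 5′ end (chromosome X, 19485759 to 19492011), was at 180 and 175 CPM in the knockdown and at 104 and 108 CPM in the bam mutant. Both knockdown libraries were above both mutant libraries. The log2 fold change was 0.74 ± 0.05, or 1.67-fold (edgeR adjusted p = 2.09e-04), and 0.13 and not called under the germline list scaling.

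All 6 NMD genes were called higher, beside 30.7% of all genes, with a median of 0.75. Under the germline list scaling 3 stayed higher, beside 7.47% of all genes. There Smg5 (-0.29) and Smg6 (-0.36) were lower and Upf1 (0.03) was not called. Summed over the class, their level was 1095 and 1005 CPM in the knockdown and 651 and 669 CPM in the bam mutant. The kinase Smg1, which phosphorylates Upf1 and is annotated as nonC on chromosome X (6824496 to 6838122), changed most of the rising genes in the list. It was at 349 and 326 CPM in the knockdown, against 162 and 172 CPM in the mutant, a log2 fold change of 1.01 ± 0.07 or 2.02-fold (edgeR adjusted p = 1.56e-04). Under the germline list scaling the rise was 0.40 and still called.

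Upf1, the RNA helicase at the centre of NMD, was at 188 and 167 CPM in the knockdown and 111 and 116 CPM in the mutant, a rise of 0.65 ± 0.07 (edgeR adjusted p = 9.44e-04). Upf2, which joins Upf1 to Upf3, was at 147 and 133 CPM in the knockdown and 74.8 and 73.8 CPM in the mutant, a rise of 0.91 ± 0.06 (edgeR adjusted p = 1.83e-04). Upf3, which contacts the exon junction complex in mammals, was at 72.0 and 67.5 CPM in the knockdown and 39.2 and 38.3 CPM in the mutant, a rise of 0.85 ± 0.06 (edgeR adjusted p = 2.15e-04). The groups were well apart for all 3 genes, and Upf2 (0.30) and Upf3 (0.24) kept their calls under the germline list scaling. Within libraries Upf1 to Upf2 was 1.25 and 1.23 in the knockdown and 1.45 and 1.54 in the bam mutant, per exonic length.

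Upf3 and Dcp1 lie 2.789 kb apart on the same strand of chromosome 2R, the only pair of the 40 genes with less than 20 kb between them as annotated, and both rose. Opposite-strand counts were 2.62% of the total of Upf3 in the knockdown and 3.43% in the mutant. The downstream NMD factors changed less. Smg5, an adaptor that recruits decay enzymes, rose by 0.32 ± 0.06 (edgeR adjusted p = 0.00769) and Smg6, the endonuclease of the pathway, by 0.25 ± 0.06 (adjusted p = 0.0164), and as said both turned under the germline list scaling. Smg6 lost its call without bam mutant replicate 1 (0.17), without bam mutant replicate 2 (0.16) and without the filter on low counts (0.10).

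The poly(A)-binding and adaptor genes did not move together, with 1 of 4 called higher and 1 lower, beside 30.7% and 33.0% of all genes. Their median was -0.14. pAbp, the cytoplasmic poly(A)-binding protein, was by far the most abundant of the 40 genes, at 4615 and 4384 CPM in the knockdown and 4931 and 4892 CPM in the bam mutant. The knockdown libraries lay a little below the mutant libraries, and the difference of -0.13 was not called (95% interval -0.31 to 0.06, edgeR adjusted p = 0.183). It was called lower in 6 of 15 alternatives, among them DESeq2 (-0.16), the germline list scaling (-0.73) and the fit without Caf40 knockdown replicate 1 (-0.21).

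Tob, which in mammals joins the Caf1 deadenylase to poly(A)-binding protein, was the least abundant per length and, after Rcd-1, fell most. It lies on chromosome X (16074717 to 16091495) and was at 17.4 and 15.7 CPM in the knockdown and at 36.2 and 35.2 CPM in the bam mutant. Both knockdown libraries were below both mutant libraries. The fall was by 1.11 ± 0.08 on the log2 scale (edgeR adjusted p = 1.79e-04), and the gene was lower under every scaling tried, between -1.72 and -0.96.

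Adaptors that bring CCR4-NOT to chosen mRNAs differed little. Tis11, which binds AU-rich elements, differed by -0.15 (95% interval -0.29 to -0.02, edgeR adjusted p = 0.0520). It passed in 10 of 15 alternatives, among them those without replicate 1 (-0.25) or replicate 2 (-0.24) of the bam mutant and that without replicate 1 of the knockdown (-0.24). A noncoding gene, lncRNA:SMRG, shares 37.4% of its exonic length on the same strand, and reads there were ambiguous in the counting. smg, the Smaug protein that directs deadenylation of nanos mRNA in the embryo, was called higher by 0.26 ± 0.09 (edgeR adjusted p = 0.0477). That call was lost without Caf40 knockdown replicate 1 (0.09), bam mutant replicate 1 (0.19) or bam mutant replicate 2 (0.15), and also with unstranded counts (0.24) and with DESeq2 (0.23) and without the filter on low counts (0.11), and it turned to -0.35 under the germline list scaling.

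**Figure D4:**
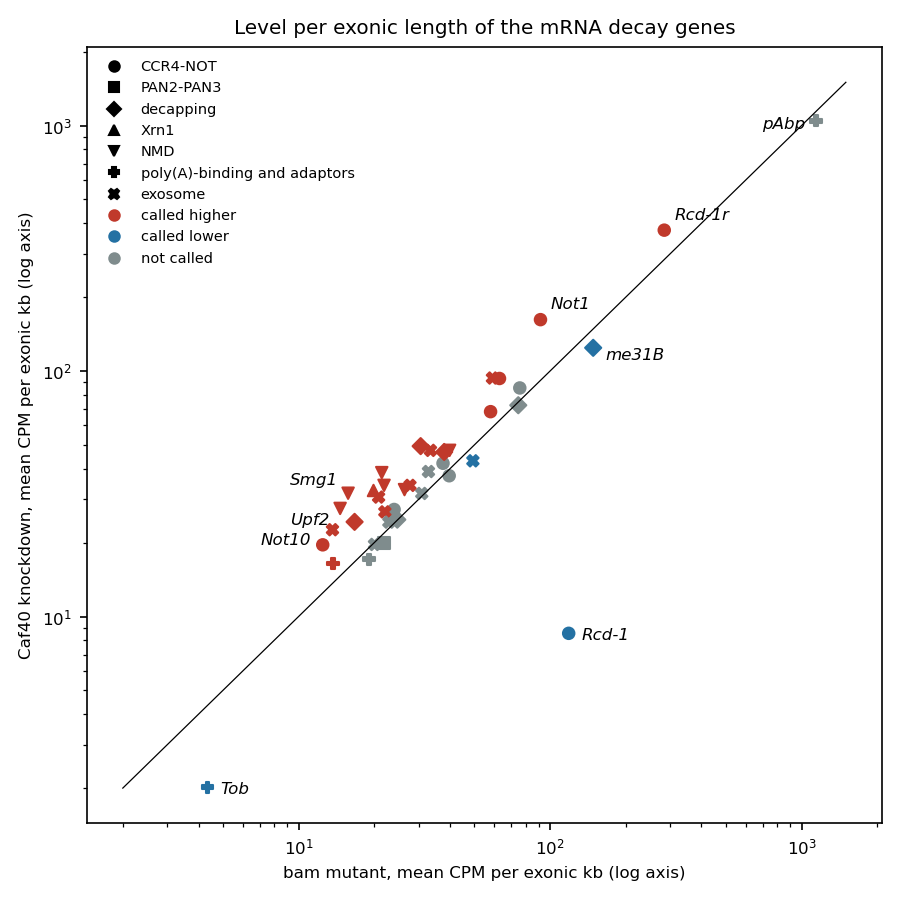
Mean level per exonic kb of the 40 mRNA decay genes in the Caf40 knockdown (y axis) against the bam mutant (x axis), both log axes in CPM per kb, with marker shape for the class and colour for the call under TMM. Genes on the line are equal in both; Rcd-1 lies far below it and Tob below it, Not1, Smg1 and Upf2 above it, and pAbp is the most abundant in both groups. Under the germline list scaling every point would lie lower relative to the line.

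The 11 exosome genes had a median of 0.28, and 6 of them passed as higher, 1 as lower and 4 as neither. Of all genes, 30.7% were called higher and 33.0% lower. The enzymes were among the exosome genes that rose. Dis3, the catalytic subunit that works with the core ring, was at 178 and 163 CPM in the knockdown and 122 and 118 CPM in the bam mutant, 0.51 ± 0.06 higher (edgeR adjusted p = 0.00131). Rrp6, the nuclease of the nuclear exosome, was at 102 and 95.7 CPM in the knockdown and 67.4 and 67.1 CPM in the mutant, 0.56 ± 0.06 higher (edgeR adjusted p = 6.21e-04). For both, the groups did not overlap, and under the germline list scaling the differences were -0.10 and -0.05 and not called. Dis3 to Rrp6 was 1.56 and 1.54 in the knockdown and 1.63 and 1.59 in the mutant, per exonic length.

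tst, the fly Ski2 helicase that feeds mRNA to the cytoplasmic exosome, was at 101 and 94.5 CPM in the knockdown and 58.0 and 60.2 CPM in the bam mutant. It rose by 0.73 ± 0.06 (edgeR adjusted p = 2.95e-04), with 0.12 and no call under the germline list scaling. CG10375 overlaps 12.2% of its exonic length on the other strand, and opposite-strand counts made up 24.1% of its total in the knockdown and 34.96% in the mutant. Rrp4, a cap subunit with RNA-binding domains, was at 113 and 100.2 CPM in the knockdown and 66.7 and 67.4 CPM in the mutant, 0.67 ± 0.07 higher (edgeR adjusted p = 7.11e-04), and 0.06 and not called under the germline list scaling.

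Of the other cap subunits, Csl4 differed by 0.25 (95% interval 0.01 to 0.48, edgeR adjusted p = 0.0662) and Rrp40 by 0.04 (-0.13 to 0.21), and neither was called. Csl4 was called higher without Caf40 knockdown replicate 2, at 0.34. Csl4 (-0.36) and Rrp40 (-0.57) were both called lower under the germline list scaling. Under upper quartile scaling both were called higher, at 0.39 and 0.18. Eno overlaps 35.1% of the exonic length of Rrp40 on the other strand, where opposite-strand counts were 1.48% of the total in the knockdown and 2.31% in the mutant. Among the ring subunits Mtr3 was called higher by 0.30 ± 0.08 (edgeR adjusted p = 0.0190) and Rrp42 by 0.28 ± 0.09 (adjusted p = 0.0396), while Rrp46 was called lower by 0.20 ± 0.07 (log2 fold change -0.20, adjusted p = 0.0464). Rrp45, at 0.08 (-0.12 to 0.29), and Ski6, the fly Rrp41, at -0.03 (-0.21 to 0.15), were not called, and their groups overlapped as those of Rrp40 did. Rrp45 (-0.53) and Ski6 (-0.63) were called lower under the germline list scaling. Rrp45 was called higher under upper quartile scaling (0.23) and by library size alone (0.17).

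The 3 calls among the ring subunits were not firm. That of Mtr3 was lost without knockdown replicate 1 (0.18), without bam mutant replicate 1 (0.26) or replicate 2 (0.17), and that of Rrp42 without the same libraries (0.15, 0.25 and 0.12). Both also lost the call without the filter on low counts (0.15 and 0.13) and after a correction for exonic length (0.20 and 0.18), Rrp42 lost it with DESeq2 (0.24), and both were lower under the germline list scaling (-0.31 and -0.33). Rrp46 lost the call without bam mutant replicate 1 (-0.24), without knockdown replicate 2 (-0.17), with DESeq2 (-0.23), by library size alone (-0.10) and under upper quartile scaling (-0.05). Rrp42 and Mtr3 also had more opposite-strand counts than most, 8.83% and 10.5% of their totals in the knockdown and 5.10% and 8.96% in the bam mutant, as had Rrp45 at 6.38% in the knockdown and 7.78% in the mutant.

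Over the whole list, levels per exonic length ranged between 2.01 CPM per kb (Tob) and 1046 CPM per kb (pAbp) in the knockdown, with a median of 33.5, and between 4.34 and 1141 CPM per kb in the bam mutant, with a median of 27.1. Among all tested genes ranked in this way, 38 of the 40 lay above the median gene in the knockdown and 39 in the mutant. Together they took 1.16% and 1.19% of the gene counts of the knockdown libraries and 0.983% and 1.00% of those of the mutant libraries. These shares are scaled by library size alone, and differences in composition between the libraries remain in them. The 22 called higher lay on every major chromosome arm, with 6 of 9 on 2R (beside 31.0% of all genes of that arm), 6 of 9 on 3R (33.7%), 4 of 7 on 3L (31.0%), 4 of 8 on X (26.7%) and 2 of 7 on 2L (30.3%). Spearman's rho between exonic length and log2 fold change was 0.14 over the 39 genes other than Rcd-1, which share libraries and are not independent replicates. Within the knockdown, replicate 1 was above replicate 2 for 35 of the 40 genes. The share of all tested genes with that order was not counted, so a trait of this list is not shown. The knockdown replicates differed by up to 0.26 on the log2 scale, against up to 0.15 between the bam mutant replicates. Without knockdown replicate 1, 20 of the genes were higher (beside 34.0% of all genes) and 8 lower (beside 35.7%).

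Other genes of the same pathways, taken from a second list of 39 that holds none of the 40 genes, gave a like count. Of these, 36 were matched (Smx5, LSm5 and LSm6 were not) and 34 tested, since cup and LSm4 had a count of 0 in every library where an annotated gene covers their exons on the same strand. There were 17 called higher (50% of those tested, beside 30.7% of all genes), 4 lower (11.8%, beside 33.0%) and 13 not called, with a median of 0.22. Under the germline list scaling 2 were called higher, Trf4-2 and Nbr, and 24 lower, beside 7.47% and 62.2% of all genes, and without Caf40 knockdown replicate 1 there were 9 lower, beside 35.7%. The helpers of the nuclear exosome had 4 of 6 higher, the exon junction complex and termination factors 3 of 6 higher and 1 lower, and the miRISC and RNA-binding adaptors 4 of 9 higher and 1 lower. The Ski complex and ribosome rescue factors had 2 of 4 higher, the LSm ring 1 of 3 higher, and the other nucleases and tail factors 3 of 6 higher and 2 lower.

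**Figure D5:**
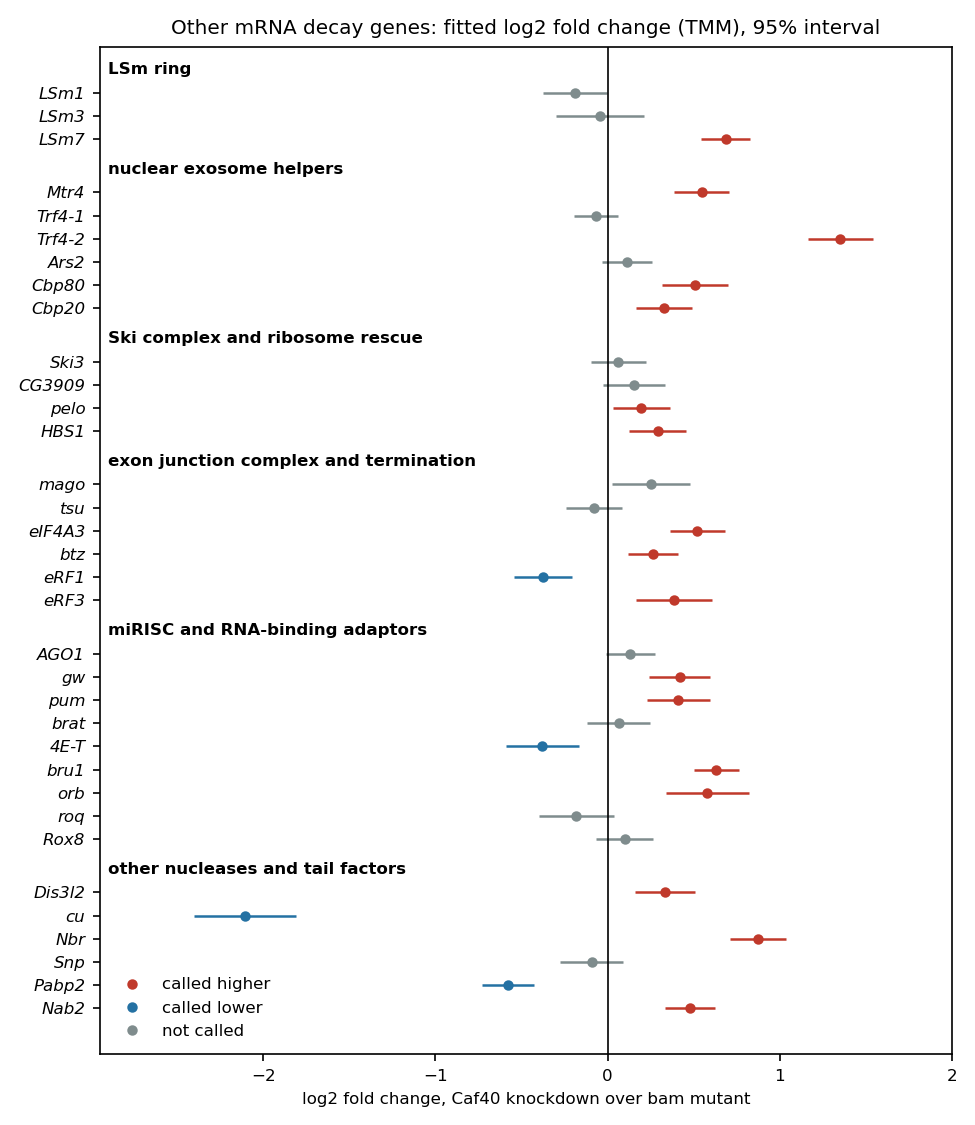
Fitted log2 fold change (x axis, Caf40 knockdown over bam mutant, TMM) with 95% interval of 34 further mRNA decay genes, grouped by role and coloured by the call. Trf4-2 (1.35) lies highest and cu (-2.11) lowest. Of the genes named in the text, LSm7 lost its call under the germline list scaling, which lowered all values.

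The largest rise was that of Trf4-2, a noncanonical poly(A) polymerase of the Trf4 family, at 43.8 and 39.8 CPM in the knockdown and 16.4 and 16.2 CPM in the bam mutant (log2 fold change 1.35 ± 0.07, edgeR adjusted p = 9.07e-05). It stayed called under the germline list scaling, at 0.74, while Trf4-1, the other member of the family, differed by -0.07 under TMM and was not called. Nbr, the Nibbler exonuclease that trims 3′ ends of small RNAs, was at 165 and 150.0 CPM in the knockdown and 86.5 and 85.8 CPM in the mutant (0.87 ± 0.06, edgeR adjusted p = 2.17e-04), and stayed called as well, at 0.26. LSm7, of the ring that binds deadenylated 3′ ends, was at 84.0 and 79.6 CPM in the knockdown and 51.6 and 50.0 CPM in the mutant, 0.69 ± 0.06 higher (edgeR adjusted p = 3.15e-04), and 0.08 and not called under that scaling.

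The largest fall was that of cu, a relative of the Ccr4-type nuclease Nocturnin, at 12.8 and 16.2 CPM in the knockdown and 62.3 and 62.8 CPM in the bam mutant. The log2 fold change was -2.11 ± 0.12 (edgeR adjusted p = 9.47e-05), the farthest from 0 after Rcd-1 over both lists. Pabp2, the nuclear poly(A)-binding protein, was at 127 and 118 CPM in the knockdown and 186 and 179 CPM in the mutant (-0.58 ± 0.06, edgeR adjusted p = 6.99e-04). 4E-T, which joins the cap-binding protein to the me31B granule, was at 131 and 114 CPM in the knockdown and 164 and 153 CPM in the mutant (-0.38 ± 0.08, edgeR adjusted p = 0.0113). The groups did not overlap for any of these 3 genes, and all 3 remained lower under the germline list scaling.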

How the data were processed

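Poly(A) RNA of Drosophila testes was sequenced with a directional kit in 4 libraries, 2 per genotype, grouped by sample title. Per the labels, the authors trimmed reads with Trim Galore, aligned them to dm6 with STAR and deposited its raw counts per gene, unstranded and for each strand. Versions and the annotation release are not given in the sources used here. The counts on the strand that the kit reads were used. The opposite strand held 2.47% to 2.54% of stranded gene counts. The 4 summary entries that name no gene (30.7% and 30.8% of read pairs in the knockdown, 28.9% and 26.9% in the bam mutant) entered neither library sizes nor tests. Not used were the authors' table of DESeq2 results of the same comparison (means, fold changes and p-values per gene) and 4 per-sample columns of a normalised table, whose names could not all be matched to the labels. For the bam mutant libraries those names read WT and 0 h after heat shock, where the labels give the bam mutant and 48 h. The labels were followed, and spermatid genes summed to 9.95 and 11.7 CPM in these libraries.

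Gene IDs were matched to symbols, and positions and exonic lengths taken, from an Ensembl BDGP6 annotation, whose assembly series dm6 belongs to. Genes that passed filterByExpr were scaled by TMM and tested with the two-sided quasi-likelihood test of edgeR 4.0.16 under R 4.3.3, with a term for group and no other. The p-values were adjusted over every tested gene by the method of Benjamini and Hochberg. The code was tested on simulated data. Intervals are 95% intervals of the fit. Within-library ratios used counts per exonic length. The mRNA decay genes, the second list, the markers and the ratios were chosen with earlier results of these data known. Every member was named. Full values were given for Rcd-1, Rcd-1r and called members with an absolute log2 fold change of at least 0.5 and, from the second list, the 3 largest rises and falls among called genes. Some other members are shown in more detail, and Trf4-1 is named, as chosen after their values were seen.

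Alternatives were 4 other scalings: the median of ratios, upper quartile, library size alone, and the median of ratios over the germline markers only. Further ones were other filters on low counts, unstranded counts, DESeq2 1.42.0, a replicate block, and bam mutant libraries thinned to the depth of the knockdown. Each library was also left out, and its lone partner is then assumed to vary like the other group. A correction for exonic length was added after seeing the data. A count of 0 allows up to 3 counts, or 0.0997 and 0.103 CPM in the knockdown and 0.0265 and 0.0322 CPM in the mutant. This covers counting error only, since no molecular identifiers were used.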

Additional observations from a re-analysis of the deposited data

How the results depend on the processing

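In 15 alternatives, the calls of Rcd-1, Not1, Upf2, Upf3, Smg1 and Tob held in each one run (6 of 26 called genes), and 13 more lost or turned their call under the germline list scaling alone. That scaling gave 4 mRNA decay genes higher (beside 7.47% of all genes), 26 lower (beside 62.2%), 3 NMD genes higher and a median of -0.35. It turned Rcd-1r (-0.21), Rga (-0.37), Not3 (-0.043), Edc3 (-0.068), Dcp2 (-0.30), Smg5 (-0.29), Smg6 (-0.36), smg (-0.35), Rrp6 (-0.050), Rrp42 (-0.33), Dis3 (-0.10) and Mtr3 (-0.31), and, of the genes not called under TMM, Not11 (-0.42), Pop2 (-0.44), twin (-0.44), PAN2 (-0.46), Patr-1 (-0.60), Rrp40 (-0.57), Rrp45 (-0.53) and Csl4 (-0.36). The shift by -0.61 of all genes is built into it. Upper quartile scaling gave a median of 0.40 and tral at 0.10, and moved all genes by 0.15. No filter gave 10 lower, a median of 0.11 (beside -0.07 for all genes) and Patr-1 at -0.14. Of all calls, 38.3% were higher without a filter and 57.4% under upper quartile scaling, against 48.2% under TMM. Library size alone gave a median of 0.35. The cause of these was not tested. With each library left out in turn, the share of all genes called higher changed too. The median of all genes then lay between -0.04 (without Caf40 knockdown replicate 2) and 0.02 (without bam mutant replicate 1). Counts of mRNA decay genes called in these fits therefore do not by themselves show a change particular to these genes. Leaving out each library gave 17 to 25 higher, 4 to 8 lower, 5 to 6 NMD genes higher and medians of 0.15 to 0.33.

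The replicate numbers of the titles share only a number, with a correlation of 0.26 between same-numbered deviations over 2 pairs. With the replicate block 23 of the 40 genes were higher (Csl4 gained), beside 30.0% of all genes. Of all genes 6792 were called, against 6912 in the main fit. Rcd-1r had no unstranded value. Depth limits low genes most in the knockdown. Replicates differed with an SD of 1.05 (log2, all genes) in the knockdown and 0.325 in the bam mutant.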
